A study of Mus musculus with 16 samples.

Results

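The 10 genes described here encode costimulatory receptors and members of the CD2 family of mouse T cells: Cd28, Cd40lg, Cd27, Tnfrsf4 (OX40), Tnfrsf9 (4-1BB), Cd226 (DNAM-1), Cd2, Slamf1 (CD150), Cd5 and Cd6. They were chosen by name and role, with earlier results of these data known, and all 10 were found among the 56748 genes of the deposited tables. A T cell needs a second signal beside its antigen receptor to become fully activated. CD28, which binds CD80 and CD86 on antigen-presenting cells, gives the best known of these signals. Receptors of the tumour necrosis factor (TNF) receptor family (CD27, OX40, 4-1BB) recruit TRAF adaptors and activate NF-κB to prolong survival, whereas CD40L is the ligand by which helper T cells activate B cells and dendritic cells. CD2 and SLAM family receptors bind related molecules on the partner cell, and the scavenger-receptor proteins CD5 and CD6 tune the antigen receptor signal, CD5 mostly as a brake.

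RNA was sequenced from memory CD4+ T cells (Tmem, sorted from mouse spleen as CD4+CD25low/-CD44high, with a further surface marker in the gate). HP1α and HP1γ are adaptor proteins that bind methylated histone H3 and help to silence genes in heterochromatin. The samples formed 4 groups of 4: HP1a KO cells, HP1a WT cells from littermates of that line, HP1g KO cells and HP1g WT cells from littermates of that line, called HP1α KO, HP1α WT, HP1γ KO and HP1γ WT below. In the HP1α line, a floxed Hp1a allele had been removed in all tissues by a CMV-cre transgene, heterozygotes were intercrossed, and the WT mice carried intact alleles. In the HP1γ line every mouse carried floxed Hp1g alleles, and only the KO mice also carried Cd4-cre, which acts in T cells, so loss of HP1γ and presence of Cre cannot be told apart in that comparison. The mice were male, on a mixed 129/Sv and C57BL/6 background. The labels give no age, which the paper states only as a range in weeks for the littermates of all its experiments. Nothing in the labels says that the samples of a group came from separate animals, and the p-values then measure only the spread between these samples. Between the lines, the floxed allele, the colony and any difference in handling cannot be told apart.

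Depth was 26694045 to 40199637 estimated counts per sample, and the 10 genes had between 718 and 35857 counts in every sample, so all 10 passed the filter on low counts. Within each line the targeted gene was lower in every KO sample than in every WT sample: Cbx5, which encodes HP1α, was at 23.0 to 29.2 CPM (counts scaled to the size of the library) in HP1α KO and 33.9 to 54.6 CPM in HP1α WT, and Cbx3, which encodes HP1γ, was at 45.4 to 49.3 CPM in HP1γ KO and 73.4 to 91.9 CPM in HP1γ WT. Cbx5 did not set HP1α KO apart from the other line, being at 19.7 to 29.7 CPM in HP1γ KO and 26.9 to 37.2 CPM in HP1γ WT. The summed level of 9 CD4 T cell markers was 4696 to 5848 CPM, against 5.10 to 18.4 CPM for the CD8 T cell markers Cd8a and Cd8b1, 44.1 to 78.9 CPM for 8 B cell markers and 50.4 to 84.6 CPM for 6 NK cell markers. Plasma cell markers summed to 8.30 to 52.0 CPM and myeloid and dendritic cell markers to 47.5 to 210.2 CPM. Red cell and platelet markers ranged more widely, from 18.2 to 1090.5 CPM, and genes of the early response to cell handling or activation summed to 8685 to 13048 CPM. In bulk RNA, fewer cells of a type and less RNA per cell cannot be told apart.

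On a scale that takes transcript length into account (TPM), Cd5, Cd2 and Cd6 were the most abundant of the 10 genes in every group, with group means from 442 to 691 TPM. Cd5 was first throughout, at 581 ± 18.3 TPM (SD, n = 4) in HP1α WT and 580.2 ± 49.4 TPM in HP1γ WT. In HP1α WT the samples of Cd5 (560 to 601 TPM), Cd2 (502 to 528 TPM) and Cd6 (420 to 469 TPM) did not overlap, whereas in HP1γ WT those of Cd5 and Cd2 did. Cd27, at 209 to 280 TPM by group mean, and Cd226, at 151 to 214 TPM, were intermediate.

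The order below them depended on the line. Cd28 came after those 5 genes in both groups of the HP1α line, at 173 ± 9.32 TPM in KO and 192 ± 30.4 TPM in WT, and ranked higher, after Cd5, Cd2 and Cd6, in both groups of the HP1γ line, at 292 ± 22.9 TPM in KO and 284 ± 25.9 TPM in WT. In the HP1α line its samples overlapped those of Cd226, and in the HP1γ line those of the gene next below it, Tnfrsf4 in KO and Cd27 in WT. By group mean, Tnfrsf4 was below Cd40lg in the HP1α line, at 129 ± 33.9 TPM in WT. Their samples overlapped in both groups there, Cd40lg being the higher in 2 of 4 KO and 3 of 4 WT samples. In the HP1γ line Tnfrsf4 was above Cd226 and Cd40lg, at 228 ± 53.2 TPM in WT, where its samples overlapped those of Cd226. Tnfrsf9, from 21.2 to 78.1 TPM over the 16 samples, and Slamf1, from 24.2 to 39.8 TPM, were the lowest in every group, and their samples overlapped each other in each group.

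**Figure D1:**
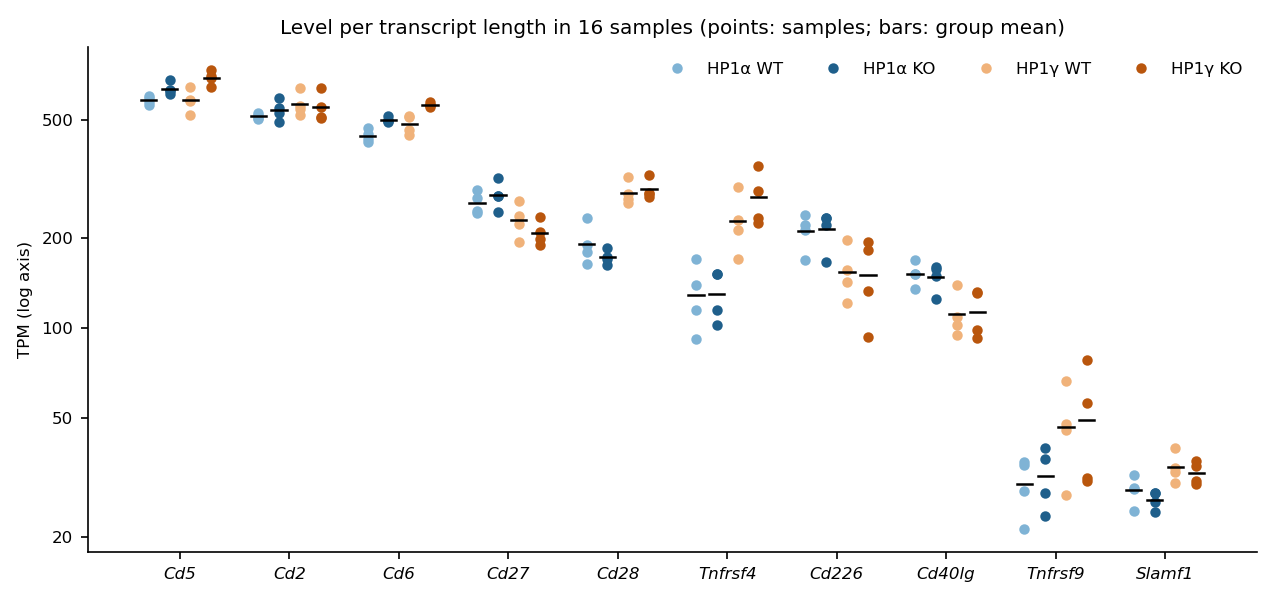
Level per transcript length (TPM, log axis) of the 10 genes in each of the 16 samples, with bars at the group means of 4 samples. Cd5, Cd2 and Cd6 form the upper tier, Tnfrsf9 and Slamf1 the lowest, and Cd28 and Tnfrsf4 sit higher in the HP1γ line than in the HP1α line.

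The question put to each line was whether loss of the HP1 protein altered these genes, tested with edgeR's quasi-likelihood test against the WT littermates of the line. None of the 10 genes was called in HP1α KO at an adjusted p under 0.05, where 0% of the 14881 genes tested were called, nor by DESeq2. At an unadjusted p under 0.05 there were 2 of 10, Cd5 and Cd6, where 4.27% of all genes passed. In HP1γ KO, 0 of 10 were called, where 0.327% of 14975 genes were, and none by DESeq2. There, 3 of 10 passed the unadjusted threshold, Cd27, Cd5 and Cd6, where 11.9% of all genes did. The fold changes of the 10 genes ran from -0.14 to 0.18 (log2) in HP1α KO and from -0.23 to 0.18 in HP1γ KO.

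In HP1α KO, Cd5 and Cd6 were the 2 of the 10 genes furthest from WT relative to their standard errors. They lie in tandem on mouse chromosome 19, Cd5 at chr19:10694480-10716366 and Cd6 at chr19:10766705-10807422 (GRCm39), both on the minus strand with 50.3 kb between them. Cd5 was at 716, 721, 746 and 759 CPM in HP1α KO and at 672, 619.7, 687 and 677 CPM in HP1α WT. Cd6 was at 835, 856, 893 and 886 CPM in HP1α KO and at 799.7, 709, 777 and 769 CPM in HP1α WT. Every HP1α KO sample was above every WT sample for both genes, a separation that 3.11% of all genes tested showed in one direction or the other. The log2 fold change was 0.15 for Cd5 (SE 0.0515, adjusted p = 0.946 by edgeR) and 0.18 for Cd6 (SE 0.0533, adjusted p = 0.946 by edgeR), so neither passed the test across all genes. The summed level of 4 naive T cell markers (Ccr7, Lef1, Tcf7, Igfbp4) was also higher in HP1α KO, at 1827 to 1953 CPM against 1639 to 1784 CPM in WT. Tcf7 made up most of this sum, with means of 1477 CPM in KO and 1356 CPM in WT. All 4 had fold changes above 0, but only Lef1 was without overlap, at 144 to 154 CPM against 127 to 141 CPM. The part of these markers in the values of Cd5 and Cd6 was not tested. Markers of other cell types lay higher in HP1α KO as well: all 8 B cell markers had fold changes above 0 (sums of 58.3 to 78.9 CPM against 51.8 to 68.7 CPM in WT), as did both CD8 T cell markers (6.30 to 16.1 CPM against 5.10 to 6.40 CPM) and 8 of 9 tested myeloid and dendritic cell markers (63.6 to 146 CPM against 55.7 to 119 CPM). None of them was called, and their part was not tested either.

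The HP1γ line showed values of similar size for this pair. Cd5 was at 695, 739, 794 and 754 CPM in HP1γ KO and at 634, 695, 691 and 653 CPM in HP1γ WT. Cd6 was at 877, 912, 919 and 918 CPM in HP1γ KO and at 825, 908, 849 and 760.0 CPM in HP1γ WT. Here KO and WT overlapped, in Cd5 through the lowest KO sample and in Cd6 through the highest WT sample. Of the 10 genes, 0 separated KO from WT in every sample, where 7.59% of all genes did. The fold changes were 0.18 for Cd5 (SE 0.0607, adjusted p = 0.336 by edgeR) and 0.14 for Cd6 (SE 0.0630, adjusted p = 0.418 by edgeR). With 4 samples against 4, the intervals for Cd5 were 0.03 to 0.26 (log2) in the HP1α line and 0.04 to 0.31 in the HP1γ line. These intervals are for 1 gene at a time, without adjustment for the number of genes tested, and Cd5 was not called in either line. B cell markers summed to 60.6 to 65.4 CPM in HP1γ KO and 44.1 to 53.4 CPM in HP1γ WT. Red cell and platelet markers summed to 81.3 to 1090.5 CPM and 44.5 to 484 CPM, with 5 of 5 tested above 0. Myeloid and dendritic cell markers summed to 88.6 to 210.2 CPM and 47.5 to 128 CPM, with 9 of 10 above 0. Of 9 CD4 T cell markers, 3 (Thy1, Cd3g, Cd3d) were lower in KO at an unadjusted p under 0.05, where 11.9% of all genes passed. Of the 9, 7 were below 0 and 2 above, Cd4 having means of 1210 CPM in KO and 1155 CPM in WT. The part of these markers in the values of Cd5 and Cd6 was not tested.

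Cd27, the receptor for CD70 and a marker of cells that are not terminally differentiated, was at 133, 162, 135 and 143 CPM in HP1γ KO and at 189, 153, 155 and 188 CPM in HP1γ WT. One KO sample lay above the lower WT samples, and the log2 fold change was -0.23 (SE 0.0956, adjusted p = 0.389 by edgeR). In HP1α KO it was at 208, 201, 195 and 233 CPM and in HP1α WT at 182, 200.4, 194 and 217 CPM, with a log2 fold change of 0.07 (SE 0.0724, adjusted p = 0.946 by edgeR). The test of the difference between the KO effects in the 2 lines gave 0.32 (log2, SE 0.126, adjusted p = 0.451 by edgeR), and 0 of the 10 genes passed that test, where 0.0507% of 15776 genes did.

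For the other genes the intervals give the range of KO changes that fits these samples, for 1 gene at a time. They are not adjusted for the number of genes tested, so they do not give the size of change that the calls would miss. Cd2, the adhesion receptor for CD48 in the mouse, had 95% intervals of -0.05 to 0.19 (log2) in HP1α KO and -0.33 to 0.12 in HP1γ KO. Cd28 had intervals of -0.32 to 0.04 and -0.20 to 0.15. Those of Cd40lg were -0.21 to 0.14 and -0.35 to 0.28, of Cd226 -0.50 to 0.22 and -0.57 to 0.24, and of Slamf1 -0.31 to 0.08 and -0.35 to 0.12. The least precise were Tnfrsf9, with -0.44 to 0.46 in HP1α KO and -0.74 to 0.74 in HP1γ KO, and Tnfrsf4, with -0.49 to 0.54 and -0.26 to 0.62.

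**Figure D2:**
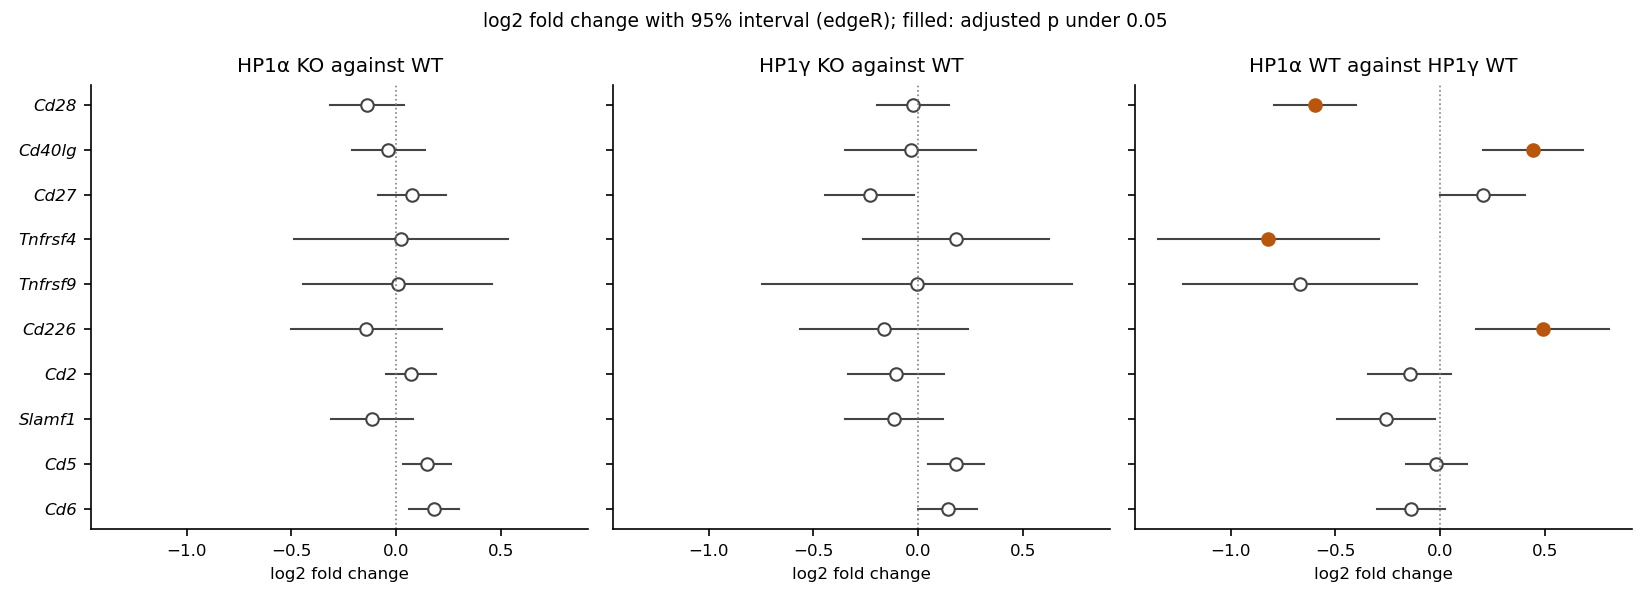
log2 fold change (x axis) of each of the 10 genes in HP1α KO against WT, HP1γ KO against WT and HP1α WT against HP1γ WT, with 95% intervals from edgeR (4 samples per group). Filled points have an adjusted p under 0.05, which 4 genes reach in the comparison of the WT groups and none in the KO comparisons.

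Among related genes, the KO comparisons called few. Of 10 other costimulatory receptors, 8 tested ligands of the 10 genes, 4 receptors that share those ligands, 8 genes of the SLAM cluster, 28 signalling partners and 13 NF-κB genes and targets, 0 were called in HP1α KO, as were 0% of all genes. The medians of these lists there lay between -0.14 and 0.06 (log2), against 0.00 over all genes. In HP1γ KO the NKG2D gene Klrk1, which encodes an activating receptor best known from NK and CD8 T cells, fell. It was at 21.6, 24.5, 22.3 and 24.9 CPM in KO and at 36.2, 32.1, 41.3 and 32.5 CPM in WT, without overlap, and the log2 fold change was -0.58 (SE 0.0965, adjusted p = 0.0385 by edgeR). The call was lost in 7 of the 8 fits that left out 1 sample, all but the one without HP1γ WT replicate 2, with adjusted p from 0.0512 to 0.147 by edgeR. No other gene of these lists was called in HP1γ KO, where 0.327% of all genes were. Of the 13 NF-κB genes 12 had fold changes above 0, with a median of 0.17 against 0.00 over all genes and 0 called. In HP1α KO 12 of the 13 were above 0 as well, with a median of 0.06.

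The WT littermates of the lines differed from each other more than KO from WT within a line, for all genes and for these. Of the 10 genes, 4 were called between HP1α WT and HP1γ WT, where 12.8% of 14804 genes were, with Cd28 and Tnfrsf4 lower and Cd40lg and Cd226 higher in HP1α WT. The number called fell to 1, Cd28, without HP1α WT replicate 1 or 4 or HP1γ WT replicate 1 or 2, and to 2 without HP1α WT replicate 2. Of the 10, 7 passed an unadjusted p under 0.05, where 29.9% of all genes did. Cd28 and Cd40lg were the 2 of 10 whose WT groups did not overlap, where 19.6% of all genes did not. The median of the 10 fold changes was -0.14 (log2), against 0.02 for all genes.

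**Figure D3:**
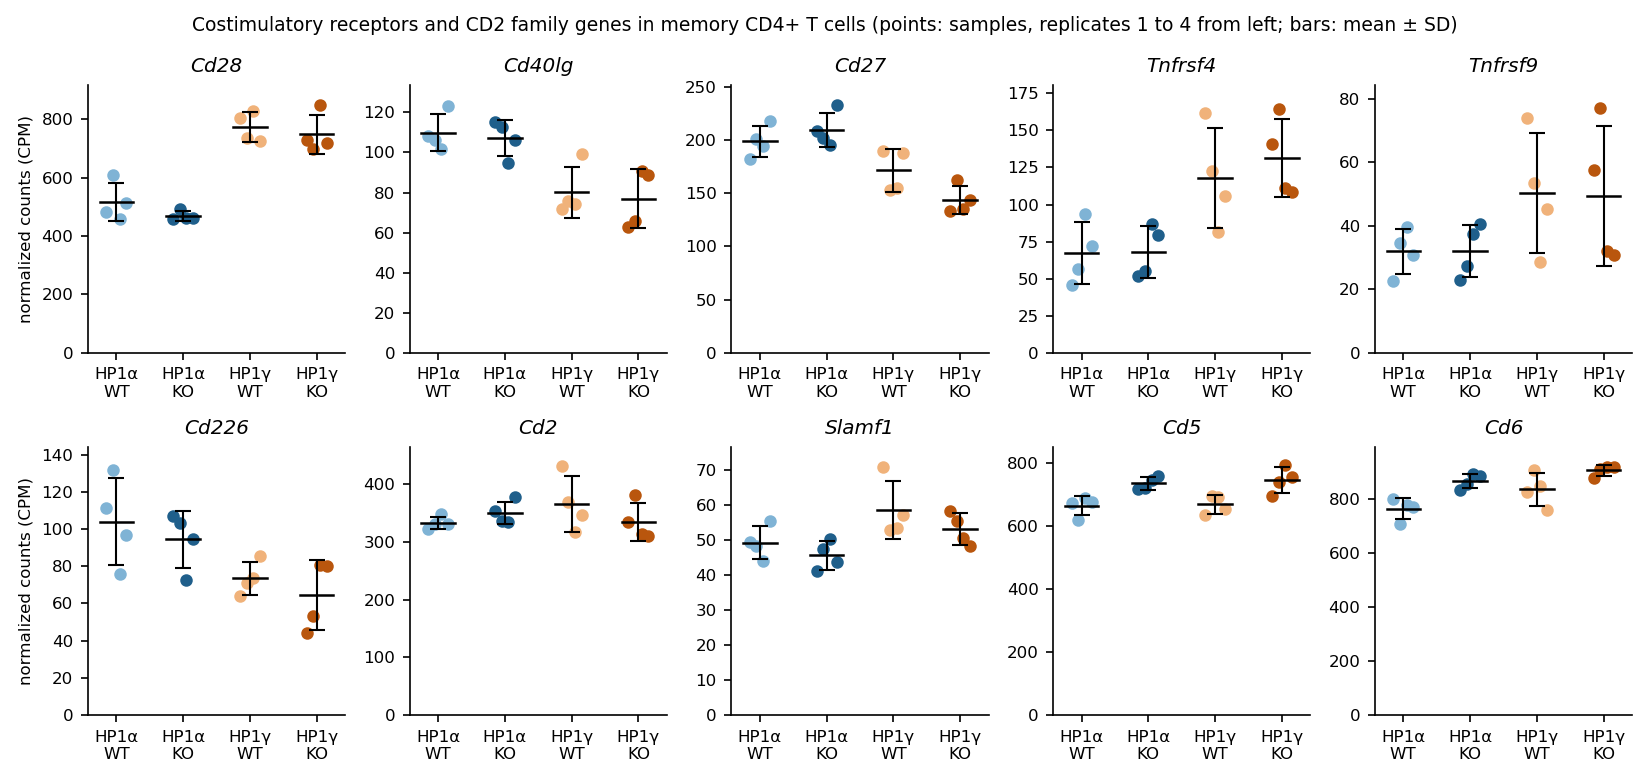
Normalized counts (CPM, y axis from 0) of the 10 genes in the 4 groups, with replicates 1 to 4 from left to right in each group and bars at the mean ± SD of 4 samples. Cd28 lies at 459 to 608 CPM in HP1α WT and at 724 to 828 CPM in HP1γ WT, while Cd5 and Cd6 sit a little higher in KO than in WT in both lines.

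Cd28, the main costimulatory receptor, showed the clearest difference between the lines. It was at 483, 608, 459 and 513 CPM in HP1α WT and at 804, 736, 828 and 724 CPM in HP1γ WT. The lowest of the HP1γ WT samples stood above the highest HP1α WT sample, and the log2 fold change was -0.60 (SE 0.0886, adjusted p = 0.00428 by edgeR). The KO groups, which are other samples of the same lines, showed the same order: 458, 493, 462 and 461 CPM in HP1α KO and 730.1, 697, 847 and 717 CPM in HP1γ KO, again without overlap, and 4 of the 10 genes were called between the KO groups, 2 lower and 2 higher in the HP1α line. That count was 6 without HP1α KO replicate 3 and 7 without HP1γ KO replicate 4. The log2 fold change of Cd28 between them was -0.70 (SE 0.0695, adjusted p = 0.000517 by edgeR). The KO groups as a whole differed more than the WT groups, with 32.8% of 15020 genes called, 44.8% at an unadjusted p under 0.05 and 32.9% without overlap.

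Cd28 lies at chr1:60755959-60812518 on the plus strand (GRCm39), and its family members Ctla4 and Icos follow 113.6 kb and 204.6 kb from it on the same strand. Icos, the inducible costimulator, was lower in HP1α WT as well, at 319 to 403 CPM against 409 to 602 CPM in HP1γ WT (log2 fold change -0.48, adjusted p = 0.0328 by edgeR). Ctla4, the inhibitory receptor for the CD28 ligands, was at 253 to 388 CPM and 309 to 453 CPM and was not called (log2 fold change -0.15, adjusted p = 0.515 by edgeR). The genes whose levels over the 16 samples were most like Cd28 were BC018473 (Pearson r = 0.94), Suco (0.94) and St6galnac1 (0.94). After the group means were removed, these correlations fell to 0.22, 0.29 and 0.07, so the likeness lay mostly between the lines.

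Cd40lg, on chromosome X at chrX:56257405-56269902 (GRCm39, plus strand), went the other way. It was at 108, 106, 102 and 123 CPM in HP1α WT and at 71.6, 75.8, 74.2 and 99.1 CPM in HP1γ WT. The fourth HP1γ WT sample came close to the HP1α samples without reaching them, and the log2 fold change was 0.44 (SE 0.108, adjusted p = 0.0265 by edgeR). The KO groups stood at 115, 113, 95 and 106 CPM in HP1α KO and at 62.9, 65.6, 90.9 and 88.6 CPM in HP1γ KO, with a log2 fold change of 0.45 (SE 0.122, adjusted p = 0.0173 by edgeR). The call between the WT groups was lost without any of 5 samples: HP1α WT replicate 1 (adjusted p = 0.0718 by edgeR) or 4 (0.0680) or HP1γ WT replicate 1 (0.0819), 2 (0.0797) or 3 (0.0575).

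Cd226, which binds CD155 (Pvr) and nectin-2 on the partner cell, was at 111, 132, 76.0 and 97.0 CPM in HP1α WT and at 63.8, 70.8, 73.6 and 85.4 CPM in HP1γ WT. The third HP1α WT sample lay among the HP1γ WT samples. The log2 fold change was 0.49 (SE 0.145), and its adjusted p was 0.0499999 (edgeR), at the threshold itself. The call was lost under most alternatives, among them 6 of the 8 fits that left out 1 sample, with adjusted p from 0.0857 to 0.148 by edgeR, the exceptions being those without HP1α WT replicate 3 or HP1γ WT replicate 4. Between the KO groups it was at 107.0, 103, 72.6 and 94.4 CPM in HP1α KO and at 43.9, 53.5, 80.6 and 80.1 CPM in HP1γ KO, where the groups overlapped and the log2 fold change of 0.52 was not called (SE 0.189, adjusted p = 0.0556 by edgeR). Under the alternatives, including fits that left out 1 sample, this difference was called in 7 and not called in 11. Over the 16 samples Cd226 and Cd40lg varied together (r = 0.88, and 0.77 after the group means were removed).

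Tnfrsf4 encodes OX40, the receptor for OX40L, and Tnfrsf9 encodes 4-1BB, the receptor for 4-1BBL. Both are induced on activated T cells and are also well known on regulatory T cells (Treg). Tnfrsf4 was at 45.7, 56.7, 93.8 and 72.2 CPM in HP1α WT and at 161, 123, 81.4 and 106 CPM in HP1γ WT. The third HP1γ WT sample lay below the highest HP1α WT sample, and the log2 fold change was -0.82 (SE 0.239, adjusted p = 0.0474 by edgeR). The call was lost in 6 of the 8 fits that left out 1 sample, with HP1α WT replicate 1 (adjusted p = 0.126 by edgeR), 2 (0.110) or 4 (0.0876) or HP1γ WT replicate 1 (0.137), 2 (0.110) or 4 (0.0551) removed. In the KO groups Tnfrsf4 was at 51.5, 55.3, 86.8 and 79.4 CPM for HP1α and at 141, 165, 111 and 109 CPM for HP1γ. Those groups did not overlap, with a log2 fold change of -0.97 (SE 0.190, adjusted p = 0.00499 by edgeR).

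In the HP1γ line Tnfrsf9 had the largest coefficient of variation of the 10 genes, at 44.9% in KO and 37.5% in WT, whereas in HP1α WT that of Tnfrsf4, at 31.1%, exceeded its 22.5%. Tnfrsf9 was at 22.6, 34.7, 39.6 and 30.7 CPM in HP1α WT and at 74.1, 53.6, 28.7 and 45.2 CPM in HP1γ WT, with a log2 fold change of -0.67 that was not called (SE 0.252, adjusted p = 0.104 by edgeR). Without HP1γ WT replicate 3, the lowest of its group, the fold change was -0.86 and was called (adjusted p = 0.0292 by edgeR). The KO samples were at 22.9, 27.5, 37.5 and 40.5 CPM for HP1α and at 57.7, 77.0, 32.1 and 30.8 CPM for HP1γ, where the third and the fourth HP1γ KO samples fell among the HP1α KO samples.

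In each group of the HP1γ line, the sample with the highest levels of these TNF receptor genes also had the highest sum of Treg markers. The gate removed most CD25-high cells, yet Foxp3, which defines Treg, was measured in every sample at 57.6 to 163 CPM. The summed level of 6 Treg markers (Foxp3, Il2ra, Ikzf2, Ikzf4, Lrrc32, Gpr83) was 271, 376, 342 and 316 CPM in HP1α WT and 485, 359.9, 249 and 355 CPM in HP1γ WT. The KO samples summed to 259, 248, 311 and 373 CPM for HP1α and to 406, 597, 313 and 290.0 CPM for HP1γ. The HP1γ KO sample with the highest sum, replicate 2, had the highest Tnfrsf4 and Tnfrsf9 of all 16 samples, and the HP1γ WT sample with the highest sum, replicate 1, came next in both. In the HP1α line this order did not hold throughout. In HP1α WT, replicate 2 had the highest sum of its group, with Tnfrsf4 below that of replicates 3 and 4 and Tnfrsf9 below that of replicate 3. In HP1α KO, replicate 4 had the highest sum and the highest Tnfrsf9, while Tnfrsf4 was highest in replicate 3, at 86.8 CPM against 79.4 CPM in replicate 4. None of the 6 markers was called between the WT groups, where 12.8% of all genes were. Between the KO groups 1, Lrrc32, was called, lower in HP1α, where 32.8% of all genes were called. Of 12 early response genes, 3 had fold changes above 0 and 9 below between the WT groups. Of these, 1 was called, lower in HP1α WT, where 12.8% of all genes were. Between the KO groups 3 were called higher and 1 lower in HP1α KO, where 32.8% of all genes were called. The part of the Treg markers and of the early response genes in the values of Tnfrsf4 and Tnfrsf9 was not tested.

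**Figure D4:**
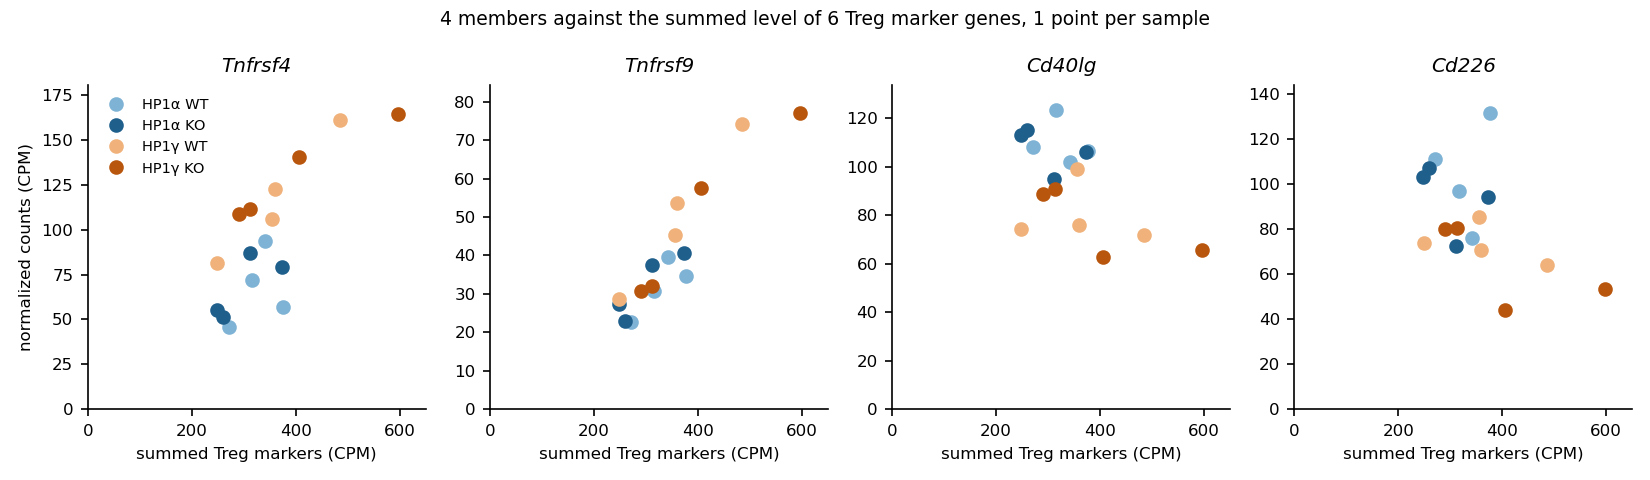
Level of Tnfrsf4, Tnfrsf9, Cd40lg and Cd226 (y axis, CPM) against the summed level of 6 Treg markers (x axis, CPM), with 1 point for each of the 16 samples coloured by group. The samples with the highest sums, 485 and 597 CPM, have the highest Tnfrsf4 and Tnfrsf9, and the HP1γ points of Tnfrsf4 mostly lie above the HP1α points at a like sum.

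Tnfrsf4 and Tnfrsf9 were also alike over the 16 samples (r = 0.87, and 0.88 after the group means were removed), and Cd83, an activation marker, was among the genes most like each of them (r = 0.97 for Tnfrsf4 and 0.94 for Tnfrsf9). Beside it, Adora2a (0.97) and Hacd3 (0.96) were most like Tnfrsf4, and Il1r2 (0.98), which encodes the decoy receptor for interleukin-1, and Smim36 (0.95) were most like Tnfrsf9. Tnfrsf4 ran opposite to Cd226 (r = -0.87, and -0.73 after the group means were removed). These are descriptions over samples that share lines and groups.

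Because Tnfrsf4 and Tnfrsf9 moved together, the 250 bases before their annotated starts are shown, as RefSeq gives them on GRCm38.p6. Their source regions are chr4:156013445-156013694 for Tnfrsf4, and chr4:150919905-150920154 and chr4:150927749-150927998 for 2 starts of Tnfrsf9, all on the plus strand. Capitals mark the matches to the κB and AP-1 motifs described after them.
Tnfrsf4: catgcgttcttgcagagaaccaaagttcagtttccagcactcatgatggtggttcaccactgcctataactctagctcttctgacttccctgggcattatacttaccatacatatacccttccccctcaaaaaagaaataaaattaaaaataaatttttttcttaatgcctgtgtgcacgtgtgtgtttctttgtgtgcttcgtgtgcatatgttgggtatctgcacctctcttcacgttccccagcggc
Tnfrsf9, first start: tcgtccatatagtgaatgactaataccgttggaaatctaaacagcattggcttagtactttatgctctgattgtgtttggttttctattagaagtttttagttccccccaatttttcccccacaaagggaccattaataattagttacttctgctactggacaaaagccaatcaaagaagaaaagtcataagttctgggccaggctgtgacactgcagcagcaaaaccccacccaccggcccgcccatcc
Tnfrsf9, second start: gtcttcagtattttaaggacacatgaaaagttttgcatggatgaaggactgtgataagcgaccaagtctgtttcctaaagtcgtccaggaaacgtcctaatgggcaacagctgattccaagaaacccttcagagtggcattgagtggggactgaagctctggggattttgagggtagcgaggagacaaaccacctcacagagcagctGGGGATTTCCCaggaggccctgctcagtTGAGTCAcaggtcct
Both strands were searched for 4 motifs. The κB consensus, in its common degenerate form, occurs in 7.25% of 32851 promoter windows of this length. The AP-1 letters TGANTCA occur in 6.75%. The TATA box letters TATAAA occur in 12.37%, and the cAMP response element TGACGTCA in 1.55%. Matches lay in the second window of Tnfrsf9 and in none of the other windows shown, nor in those of Cd27, Cd5 and Slamf1, the other genes of the 10 with a window in the table. There, κB matches began 43 and 42 bases before the start, overlapping each other, and an AP-1 match began 15 bases before it. A narrower κB form, tried earlier, had no match there. A match of letters is a description and not a binding site.

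The remaining genes were not called between the WT groups. Slamf1, a self-ligand receptor that signals through SAP, was at 49.5, 48.2, 44.2 and 55.4 CPM in HP1α WT and at 70.9, 53.0, 53.5 and 57.1 CPM in HP1γ WT (log2 fold change -0.26, SE 0.106, adjusted p = 0.131 by edgeR). Cd2 was at 323 to 348 CPM and 317 to 432 CPM (log2 fold change -0.15, SE 0.0898, adjusted p = 0.309 by edgeR). The WT groups of Cd5 were nearly equal, at 664 ± 30.2 CPM (SD, n = 4) in HP1α WT and 668 ± 29.8 CPM in HP1γ WT, with an interval of -0.17 to 0.13 (log2) for the difference. Cd27 was higher in HP1α WT by 0.20 (log2, SE 0.0911, adjusted p = 0.165 by edgeR), and between the KO groups by 0.52, without overlap (SE 0.0791, adjusted p = 0.00202 by edgeR). Cd27 was thus called between the KO groups and not between the WT groups, and the test of that difference is the one of the KO effects given above, which did not pass.

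Cd5 and Cd6 varied together (r = 0.82 over the 16 samples, and 0.71 after the group means were removed), so that Cd6 was among the 3 genes most like Cd5, between Spata48 (0.83) and Gm15433 (0.82). Gaa (0.87), Map3k9 (0.84) and Fut4 (0.84) were most like Cd6. For Cd40lg these were Actr1a, Gtpbp2 and Rnf41 (0.96 each), for Cd226 Rrm2b (0.98), Tgds and Sp1 (0.96 each), and for Cd27 Naa38 (0.94), Fkbp5 (0.93) and Naa10 (0.92). Slamf1 (Gm42778, 0.90) and Cd2 (Ssbp3, 0.78) had less close partners.

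Genes of the NF-κB system, which TNF receptors activate, were lower in HP1α WT than in HP1γ WT. Any part of the TNF receptor genes in this difference was not tested. All 13 listed genes had fold changes below 0, with a median of -0.26 (log2) against 0.02 for all genes. Of the 13, 6 were called lower and 0 higher, where 12.8% of all genes were called. The 6 were Nfkbie (-0.98, adjusted p = 0.00309 by edgeR), Rel (-0.80), Nfkb2 (-0.71), Birc3 (-0.70), Relb (-0.63) and Bcl3 (-0.49). Rel, which encodes c-Rel, was at 266, 305, 377 and 320 CPM in HP1α WT and at 642, 580.3, 495 and 483 CPM in HP1γ WT, without overlap. Nfkb2, the precursor of the non-canonical pathway, was at 230.4, 194, 283 and 273 CPM and at 412, 456, 382 and 342 CPM. In each of the 8 fits that left out 1 sample, 6 or 7 of the 13 were called. Between the KO groups, 8 of 13 were called lower in the HP1α line and 0 higher, where 32.8% of all genes were called. Rel was at 225 to 351 CPM in HP1α KO and 509 to 697 CPM in HP1γ KO.

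Among signalling partners, 6 of 28 were called between the WT groups, where 12.8% of all genes were. Malt1 (-0.53) and Bcl10 (-0.40), which link the antigen receptor and CD28 to NF-κB, and Pik3r1 (-0.55) and Pik3ap1 (-0.57) of the PI3 kinase pathway were lower in HP1α WT. The adaptor genes Traf5 (0.46) and Grap2 (0.36) were higher. Traf5, which acts at CD27 and OX40, was at 92.3 to 102 CPM in HP1α WT and 58.0 to 82.0 CPM in HP1γ WT. The median of the list was 0.09 (log2) against 0.02 for all genes, with 16 members above and 12 below 0. This count changed with the samples in the fit: 0 of 28 were called without HP1α WT replicate 1, HP1γ WT replicate 1 or HP1γ WT replicate 2, 2 without HP1α WT replicate 2, 3 without HP1α WT replicate 4 and 12 without HP1γ WT replicate 4.

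**Figure D5:**
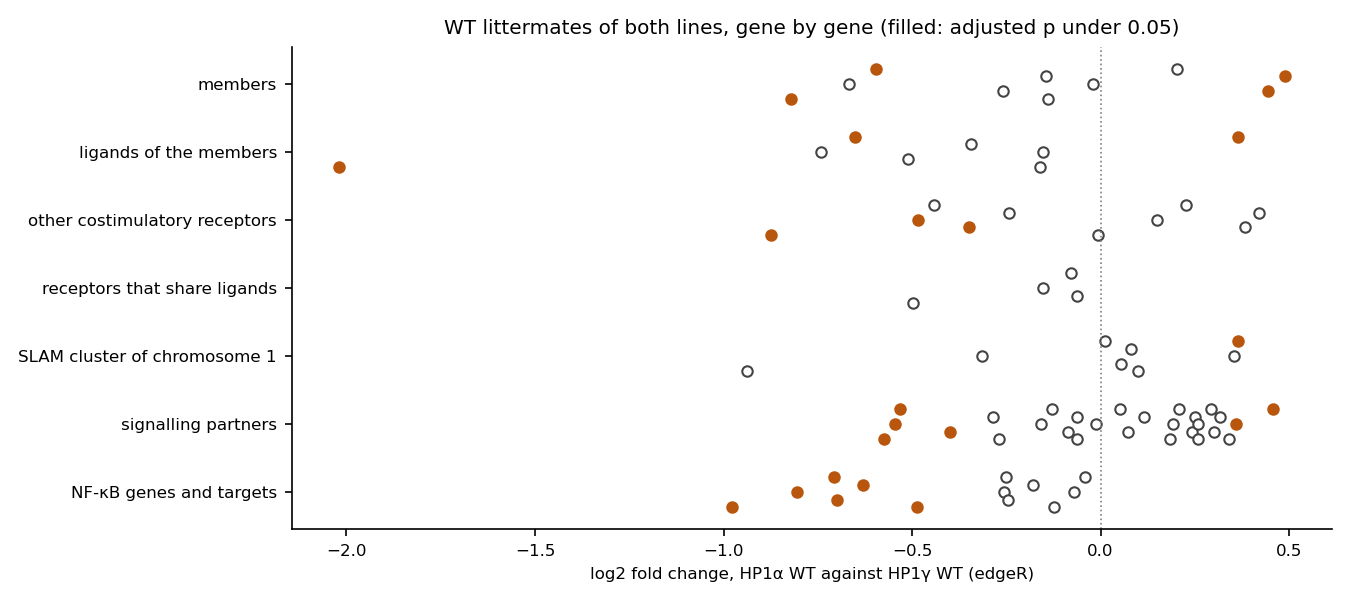
log2 fold change (x axis) between HP1α WT and HP1γ WT for each tested gene of 7 lists, with filled points at an adjusted p under 0.05 by edgeR and points spread vertically within a list for legibility. All 13 NF-κB genes lie below 0, while signalling partners lie on both sides and Tnfsf4 stands far to the left at -2.02.

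Of the 10 ligand genes, 8 could be tested and 3 were called between the WT groups, where 12.8% of all genes were. Tnfsf4, which encodes OX40L, the ligand of the Tnfrsf4 product, was low throughout but differed most, at 0.38, 0.51, 0.99 and 0.35 CPM in HP1α WT and at 3.09, 2.76, 1.49 and 1.57 CPM in HP1γ WT (log2 fold change -2.02, SE 0.394, adjusted p = 0.0118 by edgeR). The KO samples of the lines were likewise apart, at 0.32 to 0.70 CPM and 1.66 to 3.57 CPM. Cd86 was lower in HP1α WT, at 6.87 to 10.8 CPM against 10.4 to 16.1 CPM (-0.65, adjusted p = 0.0445 by edgeR). Cd48, the ligand of CD2 in the mouse, was higher, at 101 to 126 CPM against 76.3 to 96.8 CPM (0.36, adjusted p = 0.0303 by edgeR). It lies 61.9 kb from Slamf1 in the SLAM cluster of chromosome 1, where it was the 1 gene called of 8, close to the 12.8% called among all genes. Antigen-presenting cells are the main source of Cd86, and myeloid and dendritic cell markers summed to 55.7 to 119 CPM in HP1α WT and 47.5 to 128 CPM in HP1γ WT. These sums hide opposite directions: of 9 tested markers, 6 had fold changes below 0 and 3 above. Lyz2 had means of 39.7 CPM in HP1α WT and 21.5 CPM in HP1γ WT, and Siglech 13.2 and 25.9 CPM. The part of these markers in the value of Cd86 was not tested. Without HP1α WT replicate 1 or 2, or HP1γ WT replicate 1 or 2, 1 of these ligands was called.

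Of the 10 other costimulatory receptors, 3 were called lower in HP1α WT and 0 higher, where 12.8% of all genes were called. The 3 were Tnfrsf1b (-0.87, adjusted p = 0.0475 by edgeR), which encodes TNF receptor 2, Icos (-0.48) and Cd44 (-0.35), a gene the gate itself selects on. Tnfrsf18 (GITR), which lies 9.6 kb from Tnfrsf4, was at 74.4 to 86.4 CPM in HP1α WT and 82.7 to 100.1 CPM in HP1γ WT and was not called (-0.24, adjusted p = 0.0856 by edgeR). None of the 4 receptors that share ligands with CD28 or CD226 was called, Tigit having the smallest p (-0.50, adjusted p = 0.158 by edgeR). Tigit competes with CD226 for CD155. Of the 10 receptors, 1 was called without HP1α WT replicate 1 or 2 or HP1γ WT replicate 1 or 2, and 5 without HP1γ WT replicate 3.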

How the data were processed

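RNA was sequenced from 16 memory CD4+ T cell samples, 4 in each of 4 groups. The authors trimmed reads (Trim Galore), aligned them with STAR to GRCm39 with Ensembl annotation and quantified genes with Salmon (nf-core/RNA-seq). They deposited estimated counts per gene, which were rounded to whole numbers here, and a table of TPM. The library kit was stranded. The members and gene lists were chosen with earlier results of these data known. One marker gene and one signalling gene of these lists are not reported here and were left out of their counts and sums. Counts were scaled by TMM, filtered by filterByExpr (minimum count 10) and tested with edgeR 4.0.16 (quasi-likelihood, R 4.3.3), with Benjamini-Hochberg adjustment over all genes tested, using the samples of the groups compared; a gene is called at an adjusted p under 0.05. DESeq2 1.42.0, the tool of the study, and limma 3.58.1 on log2(TPM + 1) or log2(TPM + 0.1) were alternatives, besides other filters, scaling and left-out samples. The steps were tested on simulated data. The comparison of the KO groups with each other, and a fit without the ribosomal RNA gene Rn18s-rs5 (0.242 to 3.48% of counts), were added after the data were seen. The share of this gene was highest in HP1α WT, at 0.954, 1.54, 3.48 and 0.966%. It was 0.410 to 0.439% in HP1γ WT and 0.242 to 0.910% in HP1α KO. Without the gene, 699 genes were called higher and 1183 lower in HP1α WT than in HP1γ WT, against 674 and 1222 with it. Any other difference between libraries that goes with this share was not tested. CPM values are TMM-scaled. Named genes were all 10 members, list genes called in a comparison of the design or else those with the smallest p, neighbours of members, and for each member the 3 genes of highest Pearson r over 16 samples. Of 24 pairs of samples within groups, none agreed within sampling noise. The labels' treatment field and the series' design text describe another experiment and were not used; groups came from titles and genotypes. Coordinates are GRCm39 (GENCODE), promoters RefSeq on GRCm38.p6. Intervals cover 95%.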

Additional observations from a re-analysis of the deposited data

Results flagged for a closer look

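Of 40 sets of 4 samples (10 genes in 4 groups), 3 had a sample far from the other 3 by Dixon's criterion, where chance gives about 2. Cd28 in HP1α KO replicate 2 was at 493 CPM, above the 458 to 462 CPM of its group. Cd40lg in HP1γ WT replicate 4 was at 99.1 CPM, above the 71.6 to 75.8 CPM of its group. Cd6 in HP1γ KO replicate 1 was at 877 CPM, below the 912 to 919 CPM of its group.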

How the results depend on the processing

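The tally under all alternatives covered the 10 genes in each KO comparison and between the WT groups. For the difference of KO effects it held Cd27 only, and between the KO groups Cd28, Cd27, Cd40lg, Tnfrsf4 and Cd226. Changes of the other genes between the KO groups are not in it. Of these values, 581 kept their direction and their side of the threshold, 34 fell below it and 8 rose above it. A further 32 changed sign, all among values that were not called. Cd28 between the WT groups was called under every alternative but the fold threshold, and no member was called in either KO comparison under any. With a log2 fold change above 1 also required, 0 members and 282 genes were called between the WT groups (of the lists, 1 ligand, Tnfsf4, and 0 of the NF-κB genes, signalling partners or other receptors), 0 members and 651 genes between the KO groups, and 5 genes for the difference of KO effects.

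The numbers of genes called were 8 with DESeq2, 1 with no filter on low counts and 1 under both limma settings on TPM in HP1α KO (0 in the main test). In HP1γ KO (49) they were 265 with DESeq2, 31 with at least 10 counts in every sample, 96 with all 16 samples in one fit, and 28 and 32 with limma at pseudocounts of 1 and 0.1. Between the WT groups (1896) limma gave 1175 and 1210, of which 21.3% were higher in HP1α WT, against 35.5% in the main test, and DESeq2 called 15 signalling partners and 5 other receptors, a fit of all 16 samples 13 signalling partners. For the difference of KO effects (8) they were 78 with DESeq2, 14 with no filter and 4 with limma at 0.1. The cause of these shifts was not tested.

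Replicate numbers are shared between groups, but the correlations of deviations of same-numbered samples (0.0806 to 0.271 in the HP1α line, -0.00637 to 0.186 in the HP1γ line, -0.195 to -0.0952 between the WT groups) did not all exceed 0.1, and 2, 1 and 0 of 4 samples correlated best with their own number, so the numbers were not taken as pairs. With the replicate block, 2 members (Cd28 and Cd40lg), 577 genes, 0 signalling partners, 1 ligand and 1 other receptor were called between the WT groups, 19.2% of the genes higher in HP1α WT, and 13 genes for the difference of KO effects. Klrk1 in HP1γ KO was not called with the block or limma, and Tnfrsf9 in HP1α KO turned to -3.83738e-05.

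On TPM (limma, pseudocounts of 1 and 0.1), the sign turned for Cd226 in HP1α KO (0.0185 and 0.0186), for Cd28 (0.0407 and 0.0408), Cd40lg (0.0197 and 0.0198) and Tnfrsf9 (0.0242 and 0.0240) in HP1γ KO, and for Cd5 between the WT groups (0.00522 and 0.00523). With at least 10 counts in every sample, Tnfrsf9 in HP1γ KO was 0.00145. All scalings left the median of all genes within 0.1 (log2) of 0.

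Leaving out 1 sample at a time gave 0 to 3 genes called in HP1α KO (3 without HP1α WT replicate 3, 1 without replicate 4), 30 to 49 in HP1γ KO (30 without HP1γ KO replicate 1, 32 without replicate 2) and 7 to 12 for the difference of KO effects. Between the WT groups it gave 573 to 2185 genes (573 without HP1α WT replicate 1, 613 and 626 without HP1γ WT replicates 1 and 2, 1101 and 1040 without HP1α WT replicates 2 and 4) and 1 to 4 members, with 0 to 12 signalling partners, 1 to 3 ligands and 1 to 5 other receptors. Between the KO groups 3 to 7 members were called (3 without HP1γ KO replicate 2, 6 without HP1α KO replicate 3, 7 without HP1γ KO replicate 4). The log2 fold change ran in HP1α KO from -0.0724 to 0.0219 for Cd40lg, -0.12 to 0.23 for Tnfrsf4 and -0.13 to 0.14 for Tnfrsf9. In HP1γ KO it ran from -0.0895 to 0.0105 for Cd28, -0.12 to 0.0729 for Cd40lg and -0.30 to 0.24 for Tnfrsf9, and between the WT groups from -0.0424 to 0.0209 for Cd5.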
